A study of Mus musculus with 3 samples.

Results

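Genes of mucus-secreting epithelium were followed across cultures made to study induced thyroid cells. They are the trefoil factors Tff1, Tff2 and Tff3, the gastrokines Gkn1 and Gkn2, the secreted protein gene Clca1, the mucins Muc1, Muc2 and Muc5ac, and Agr2. These 10 genes, read by 14 probes, come from 18951 genes that could be named on the array. They were chosen by their measured values, because several of them rank among the genes highest in the induced cultures relative to the primary culture. Levels in those comparisons are therefore descriptive, and the counts of high members support nothing further.

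The series holds 3 one-colour arrays of mouse total RNA, 1 per group. The 7-factor culture began as fibroblasts of E13.5 embryos (ICR strain), to which retroviruses brought the thyroid factors Foxe1, Nkx2.1 and Pax8 and the reprogramming factors c-Myc, Klf4, Sox2 and Oct3/4. The 8-factor culture received the same viruses plus one for Hhex. Both were kept in serum-containing low-glucose medium and then in a medium with N2 and B27 supplements, thyroid-stimulating hormone at 1 U/mL and potassium iodide at 1 µg/mL, and were collected at day 21. The primary culture was of thyroid follicular cells from adult ICR mice after 1 week in that supplemented medium. All 3 cultures therefore shared the hormone and the iodide, and both induced cultures carried 7 viral factors in common. An array of fibroblasts without viruses was not analysed here, so no level below can be set against the starting cells. The labels describe neither clones nor sorting of the induced cells. Probe sequences were not analysed here, so whether probes of the delivered genes, such as Sox2, Klf4 and Foxe1, read the viral transcripts is unknown.

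Trefoil factors are small secreted peptides with a disulphide-stabilised fold that are released together with mucus and take part in repair of the epithelial surface. In the mouse, Tff1 and Gkn2 are products of gastric surface (pit) mucous cells, Tff2 of mucous neck and Brunner's gland cells, and Tff3 of intestinal goblet cells. Gastrokines are secreted proteins of the stomach lining with a BRICHOS domain, and Gkn2 binds Tff1. The defining genes of thyroid follicular cells are instead those of hormone synthesis, such as Tg.

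Of the adjacent gastrokine genes, Gkn2 was far higher in the induced cultures than in the primary culture and Gkn1 gave no fold, and their promoter windows are shown for that reason. Both lie on chromosome 6. The windows come from RefSeq on GRCm38.p6 and span 300 bases, from 250 before to 50 after the annotated start. Gkn2 is at chr6:87373115-87373414 on the plus strand and Gkn1 is at chr6:87350866-87351165 on the minus strand. Each is written 5′ to 3′ along its gene. Capitals mark matches, on either strand, to the forkhead motif TGTTTNC, the GATA motif GATAAG, the KLF-type motif CACCC and the TATA motif TATAAA.
Gkn2: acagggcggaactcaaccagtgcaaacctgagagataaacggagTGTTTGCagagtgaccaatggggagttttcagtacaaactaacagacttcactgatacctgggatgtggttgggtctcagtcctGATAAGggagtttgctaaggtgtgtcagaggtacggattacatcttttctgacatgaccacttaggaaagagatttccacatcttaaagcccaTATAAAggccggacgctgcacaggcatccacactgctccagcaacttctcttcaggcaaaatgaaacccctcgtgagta
Gkn1: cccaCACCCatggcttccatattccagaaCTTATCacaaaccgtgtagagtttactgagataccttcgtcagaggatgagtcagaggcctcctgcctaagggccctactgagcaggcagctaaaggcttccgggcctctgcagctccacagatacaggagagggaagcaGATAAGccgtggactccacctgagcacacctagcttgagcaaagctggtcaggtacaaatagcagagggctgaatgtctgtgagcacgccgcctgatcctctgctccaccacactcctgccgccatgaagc

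The Gkn2 window held 1 forkhead match at -206, counted from the start, 1 GATA match at -122 and 1 TATA match at -29. The Gkn1 window held GATA matches at -221 and -81 and a KLF-type match at -246, and no TATAAA. Forkhead matches occurred in 20.5% of all 32851 promoter windows, GATA matches in 7.44%, KLF-type matches in 57.5% and TATA matches in 13.6%. Windows were at hand for 5 of the 10 genes (Agr2, Gkn1, Gkn2, Muc1 and Muc2). Motifs of 4 further delivered factors or their classes, CAAGTG (NKX2-1), CATTGT (SOX), ATTTGCAT (octamer) and the MYC E-box CACGTG, were in 0 of these 5 and in 13.6%, 12.6%, 1.74% and 7.15% of all windows; motifs for Pax8 and Hhex were not searched. The forkhead motif was in the windows of Agr2, Gkn2, Muc1 and Muc2, and the KLF-type motif in those of Agr2, Gkn1 and Muc2. These matches describe letters in a window and do not show binding.

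On the arrays, 78.2% of probes were well above background in the 7-factor culture, 78.2% in the 8-factor culture and 64.2% in the primary culture. The 75th percentile of signal was 2323, 2672 and 535, a ratio to the primary array of 4.34 and 4.99, while the mean spike-in signal had ratios of 0.93 and 0.53. Levels below are log2 processed signal minus that 75th percentile of the same array, so 0 is the 75th percentile itself. The induced arrays shared 1 slide and 1 scan and the primary array had another slide and scan, so slide and culture type cannot be told apart. With 1 array per group there is no estimate of the spread between cultures and no test; the error given is that of the scanner software for a spot. All 11 measured thyroid follicular markers were well above background in the primary culture, at a median level of 0.47, against 9 and 8 of them in the 7-factor and 8-factor cultures at medians of -6.90 and -6.35. All 14 measured leukocyte markers were also well above background in the primary culture, at a median level of 2.53 against -5.15 and -5.46. Their part in the values below was not tested. In such bulk cultures, fewer cells of a type and less RNA per cell cannot be told apart.

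**Figure D1:**
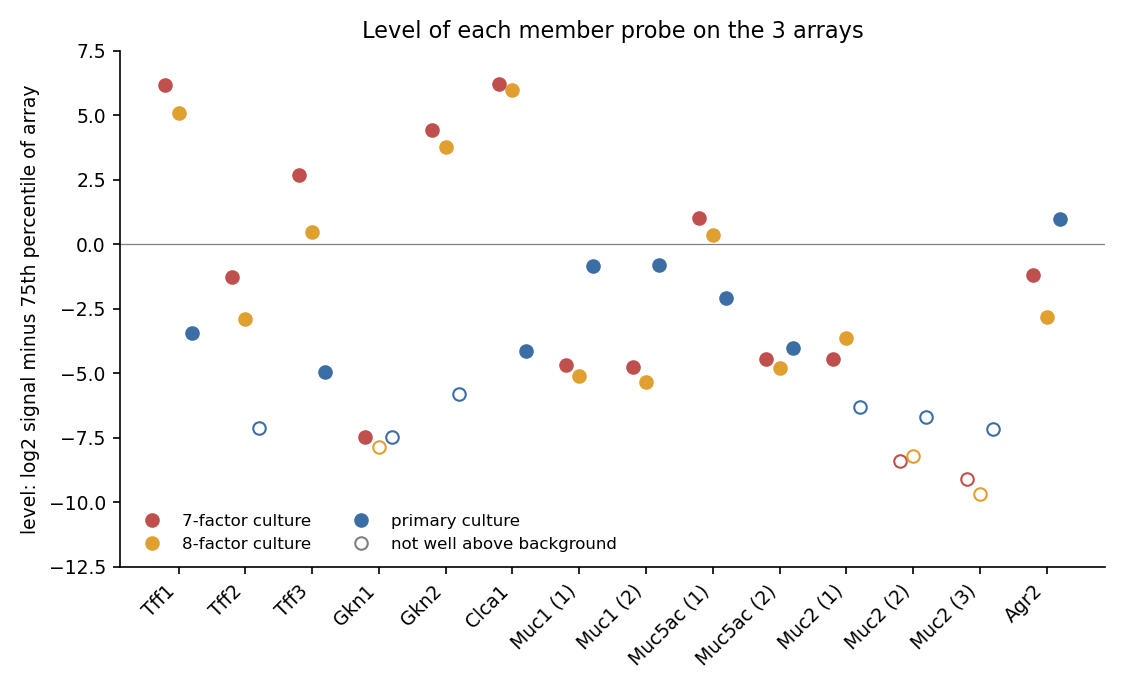
Level of each of the 14 probes of the 10 genes on the 7-factor, 8-factor and primary arrays (log2 signal minus the array's 75th percentile), with open circles for values not well above background and numbers after a name for its separate probes. Tff1, Tff3, Gkn2 and Clca1 lie far higher on both induced arrays than on the primary array, and Muc1 and Agr2 lie lower.

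Among the trefoil factors, Tff1 had the highest difference from the primary culture. Its level was 6.17 in the 7-factor culture, 5.09 in the 8-factor culture and -3.43 in the primary culture, from signals of 167277, 90739 and 49.6. Both induced arrays were high and the primary array low. This was 777-fold higher with 7 factors (log2 difference 9.60, scanner error 0.23) and 366-fold higher with 8 factors (8.52). The primary spot was well above background and the induced spots were not marked as saturated. Tff3, the goblet-cell trefoil factor, had levels of 2.68, 0.48 and -4.94, from signals of 14923, 3738 and 17.4, so the 7-factor array was the highest and the primary array the lowest. It was 197-fold higher with 7 factors (7.62, scanner error 0.37) and 43.0-fold higher with 8 factors (5.43). Its primary signal was only 1.23 times the lowest signal well above background on that array, so its folds rest on a spot near the edge of detection. Tff2, the spasmolytic peptide, had levels of -1.28 and -2.89 in the induced cultures and was not well above background in the primary culture. It was at least 15.6-fold higher with 7 factors and at least 5.09-fold higher with 8. When every value under 25% of the array's 75th percentile was lifted to that floor, its differences were 0.72 and 0.00, under 2-fold.

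The gastrokines differed from each other. Gkn2 had levels of 4.43 and 3.75 in the 7-factor and 8-factor cultures, from signals of 50033 and 35992, and was not well above background in the primary culture, where its signal was 9.71. It was at least 811-fold higher with 7 factors and at least 507-fold higher with 8. Gkn1 had levels of -7.47, -7.87 and -7.44 and was well above background in the 7-factor culture alone, at a signal of 13.1. It lay near the lower edge of detection on the induced arrays and below it on the primary array, so no fold is given. Gkn3, the remaining gastrokine gene beside them, was lower in the induced cultures, with levels of -2.28 and -2.69 against -0.92 (2.57-fold and 3.43-fold lower; log2 differences of 0.76 and 0.54, under 2-fold and of the other sign, without scaling). Within this cluster Gkn2 alone was high.

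Clca1 encodes a secreted protein of the calcium-activated chloride channel regulator family, made by goblet cells of the intestine and airway. Its level was 6.20 in the 7-factor culture, 5.97 in the 8-factor culture and -4.12 in the primary culture, from signals of 170816, 167651 and 30.9. It was 1275-fold higher with 7 factors (log2 difference 10.32, scanner error 0.25) and 1088-fold higher with 8 factors (10.09). Of the genes measured on both arrays, Clca1 had the highest difference and Tff1 the second highest of 14055 with 7 factors and of 14068 with 8 factors. Tff3 was number 6 and number 29 in those orders. The primary signal of Clca1 was 2.17 times the lowest signal well above background.

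The mucins did not share a direction. Muc5ac, the gel-forming mucin of the gastric surface, was higher in the induced cultures on its brighter probe, with levels of 1.01, 0.36 and -2.09 (8.60-fold and 5.47-fold higher). Its second probe did not show this, with levels of -4.43, -4.79 and -4.03 and log2 differences of -0.41 and -0.77. Muc2, the gel-forming mucin of the intestine, was well above background on 1 of its 3 probes in the induced cultures, at -4.43 and -3.61, and on none in the primary culture. That probe gave at least 1.75-fold with 7 factors and at least 3.08-fold with 8, the latter 0.00 on the log2 scale with normexp background correction, with the raised floor or over the median of its probes. Muc1, a membrane-anchored mucin found on many glandular epithelia, was the other way round. Its probes gave -4.67, -5.10 and -0.84, and -4.77, -5.32 and -0.79. By the first it was 14.2-fold lower with 7 factors and 19.2-fold lower with 8, and by the second 15.8-fold and 23.2-fold lower.

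Agr2 encodes a protein disulphide isomerase of the endoplasmic reticulum that mucin assembly needs. Its levels of -1.17, -2.82 and 0.99 put it lower in both induced cultures than in the primary one, by 4.48-fold with 7 factors (-2.16) and by more with 8 (-3.80). Without scaling between arrays the 7-factor difference was -0.04. The neighbouring paralog Agr3 was not well above background in the induced cultures and stood at -1.04 in the primary culture, a difference of at least 108-fold with 7 factors and 123-fold with 8. Txndc12, the remaining member of the family, differed by 0.34 and 0.31. The genes for mucus peptides and for this folding enzyme were thus not on the same side in these cultures.

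Read over the set, 6 of the 10 genes were at least 2-fold higher with 7 factors (Tff1, Tff2, Tff3, Gkn2, Clca1 and Muc5ac), 4 of them measured on both arrays; 19.1% of 16152 genes compared were so. Of the 10, 5 were at least 10-fold higher, as were 2.24% of genes, and 2 were at least 2-fold lower (Muc1 and Agr2), as were 27.0%. With 8 factors 7 of the 9 compared were at least 2-fold higher, against 17.9% of 16161 genes. Muc2 was the addition, by a bound, and its lower bound of 0.81 with 7 factors leaves that call undetermined. Of the 9, 4 were at least 10-fold higher, against 1.92%, and 2 were lower, against 27.3%. The contrast chose these genes, so nothing is read from the excess. The median difference of the set was 3.53 with 7 factors and 2.45 with 8, against 0.00 and 0.00 for all genes compared. Both comparisons use the same primary array, so they are not independent and a high value in both was not treated as repeat evidence.

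**Figure D2:**
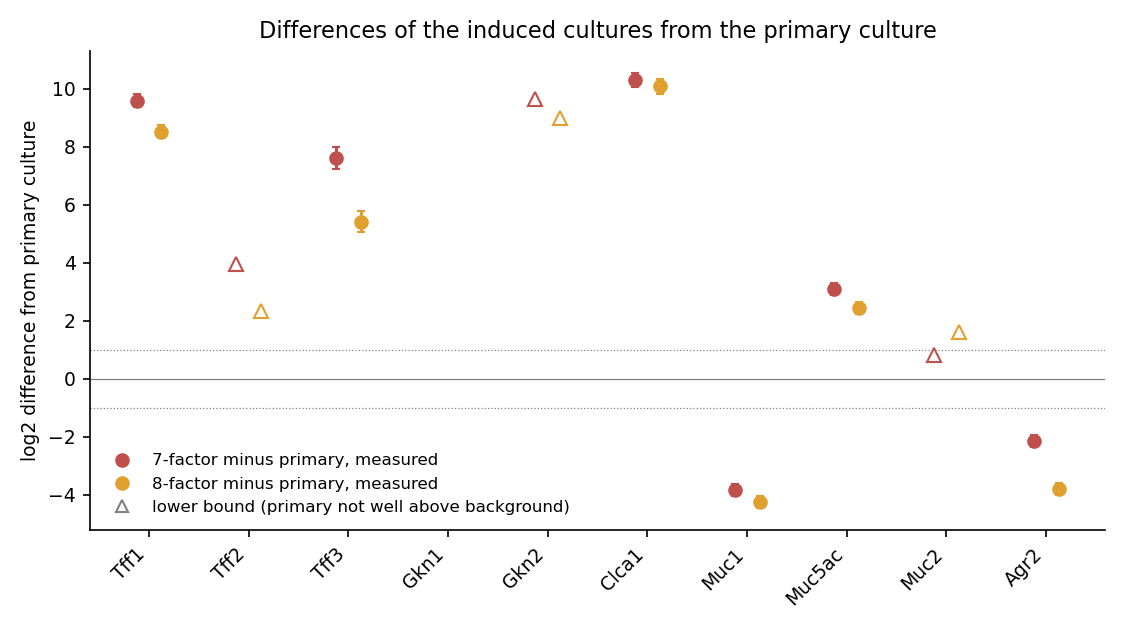
Log2 difference from the primary array of each of the 10 genes for the 7-factor and 8-factor cultures, with bounds marked where the primary value was not well above background and scanner errors as bars on measured differences; triangles are lower bounds, dotted lines mark 2-fold and Gkn1 is not drawn. Clca1 has the largest measured value in both, at 10.32 and 10.09, and Muc1 the lowest, at -3.83 and -4.27.

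The comparison of the 8-factor with the 7-factor culture does not involve the primary array. The levels of both induced cultures entered the choice of the genes, however, so nothing is read from the counts here either. The 4 genes that were at least 2-fold lower with Hhex added were Tff1, Tff2, Tff3 and Agr2, and 0 of 10 were at least 2-fold higher; of all 16260 genes compared, 3.92% were lower and 4.65% were higher. Tff3 fell the furthest, by 2.20 on the log2 scale (4.59-fold; scanner error 0.20), and was number 26 from the lowest of the 15489 genes measured on both arrays. Agr2 was 3.12-fold lower (-1.64) and number 79, Tff2 3.06-fold lower (-1.61) and number 85, and Tff1 2.12-fold lower (-1.08) and number 436. These calls were not equally firm. Tff1 was under 2-fold with quantile normalization (-0.89) and without scaling (-0.88), and Tff2 (-0.72) and Agr2 (-0.83) were under 2-fold with the raised floor. The mean log2 spike-in signal was 10.39 on the 7-factor array and 9.58 on the 8-factor array, while the 75th percentile was 2323 and 2672. Scaling to the spike-ins would raise every difference in this comparison. It was not run, so how many calls would remain was not tested. Gkn2 differed by -0.68 and Muc5ac by -0.65, Muc1 by -0.43 and Clca1 by -0.23, all under 2-fold. Muc2 alone among the 9 measured members was higher, at 0.82. Median difference of the set was -0.66 against -0.08 over all genes. Probes spotted repeatedly had a median SD between their spots of 0.08 on the 7-factor array and 0.12 on the 8-factor array, which does not cover variation between cultures.

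**Figure D3:**
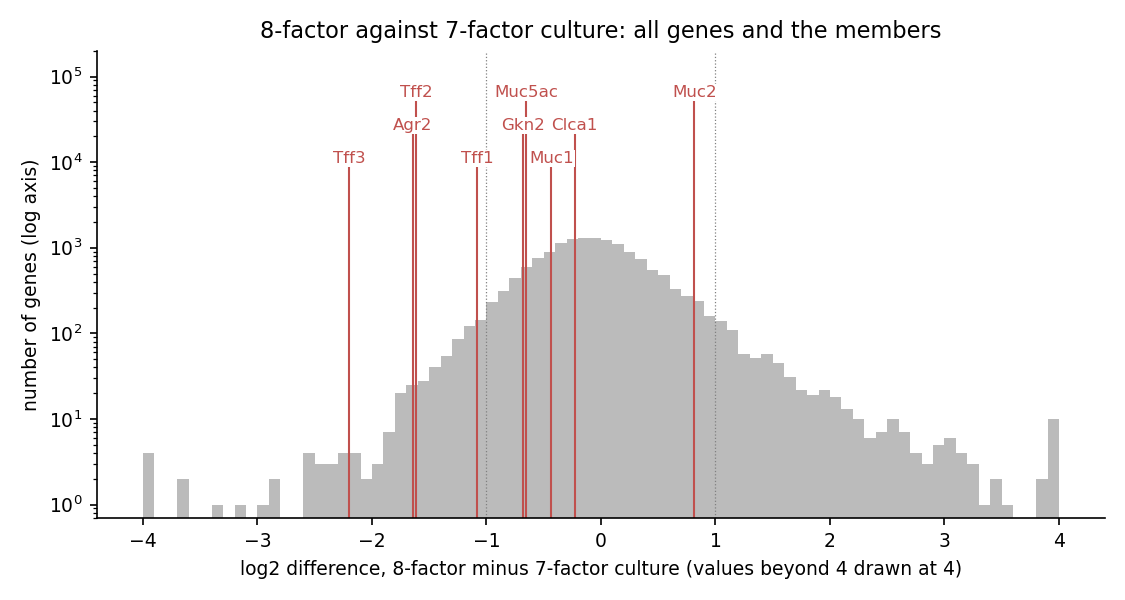
Number of genes (log axis) by log2 difference of the 8-factor from the 7-factor array, over all genes measured on both, with red lines at the 9 members so measured and dotted lines at 2-fold. Tff3, Agr2, Tff2 and Tff1 lie beyond the lower 2-fold line, at -2.20, -1.64, -1.61 and -1.08, and the other members lie between the lines.

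Genes that accompany these products in mucous epithelium were described from lists made with earlier results of these data known. A gene above a 2-fold difference is called higher or lower. Beside every list below, the shares over all genes compared were 19.1% higher and 27.0% lower with 7 factors. With 8 factors they were 17.9% and 27.3%. Because the lists were made with results known, nothing is read from an excess over these shares. Of the secreted mucins with a probe, 2 of 3 were higher with 7 factors and 3 of 3 with 8. The family counts in this paragraph include members of the chosen set. These are Muc5ac and Muc2 here, Muc1 among the membrane mucins and Clca1 in the Clca family. Muc5b, the gel-forming mucin of the airway, was 98.4-fold and 87.5-fold higher, at levels of 1.97, 1.79 and -4.66. The 3 membrane mucins compared were lower in both cultures, and without scaling 2 of 3 still were. Muc4, also a membrane mucin, was left out of these counts because its brightest probe was not well above background in the primary culture while another of its probes was. The brightest probe, at levels of -2.23 and -1.96 in the induced cultures, was higher by at least 3.28 with 8 factors, a second probe by at least 1.59 with 7 and 2.23 with 8, and the probe measured on all arrays differed by 1.03 and -0.73, so its probes disagree; Muc4 is named after its values were seen. Muc20 was 16.2-fold and 19.4-fold lower. In the Clca family, 3 of 4 genes compared with 7 factors and 3 of 5 with 8 were higher and Clca3b was lower, by bounds. Clca3a1 differed by 2.72 and 3.53 and Clca3a2 by 2.63 and 3.04; these are closely related genes, and cross-reading between their probes was not tested.

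Gastric pit-cell genes were higher in 6 of 10 compared with 7 factors and 5 of 10 with 8, and lower in 1 and 1 (median differences 1.21 and 1.12). Over all genes, 19.1% and 17.9% were higher and 27.0% and 27.3% lower. Capn9, a calpain of gastric surface cells, was higher by 127-fold or more with 7 factors and 86.5-fold or more with 8. Psca, a surface antigen of that lineage, was 26.4-fold and 21.9-fold higher. Aldh3a1 was higher by at least 3.56 and 4.46 and Anxa10 by at least 3.38 and 3.79. Gastric gland-cell genes were instead higher in 1 of 14 and lower in 9 of 14 with 7 factors and 1 and 9 of 13 with 8 (medians -1.87 and -2.38), though without scaling the medians were 0.04 and -0.06. The high one was Kcne2, a potassium channel subunit of acid-secreting cells that is also a thyroid gene, higher by 94.2-fold or more and 35.7-fold or more. The water channel Aqp5 had differences of -3.60 and -3.20.

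Intestinal goblet-cell genes were higher in 9 of 15 with 7 factors and 8 of 16 with 8, and lower in 1 and 1 (medians 1.53 and 0.78). Without scaling 14 of 15 and 14 of 16 were higher, where 69.4% and 72.5% of all genes were higher too. The counts use the brightest probe of each gene, and Bcas1, counted as higher, gave -0.44 and -0.90 on its other probe. Zg16, a lectin-like protein of goblet granules, was 113-fold and 72.3-fold higher, and Rep15 was 32.1-fold and 31.5-fold higher. Sytl2, a vesicle-docking protein, was higher by 84.4-fold or more and 42.5-fold or more. Intestinal absorptive-cell genes were higher in 2 of 12 and 2 of 13 and lower in 4 of each. Their medians of 0.00 and 0.00 fall on bounds set to 0 and are not measured values. Lgals4 was higher by 3.20 and 2.92 while the brush-border phosphatase Alpi had differences of -3.58 and -3.49. Airway secretory genes were higher in 4 of 12 in both and lower in 5 and 6. Scgb1a1, the club-cell secretoglobin, was higher by at least 6.09 and 4.80, and Bpifa1 had differences of -8.62 and -9.08. High genes made up only part of each of these lists, and Capn9 counts in both the pit and the goblet list. In the gland and absorptive lists the share of high genes did not exceed that of all genes. With 7 factors it was 1 of 14 and 2 of 12, against 19.1% of all genes. With 8 factors it was 1 of 13 and 2 of 13, against 17.9%.

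**Figure D4:**
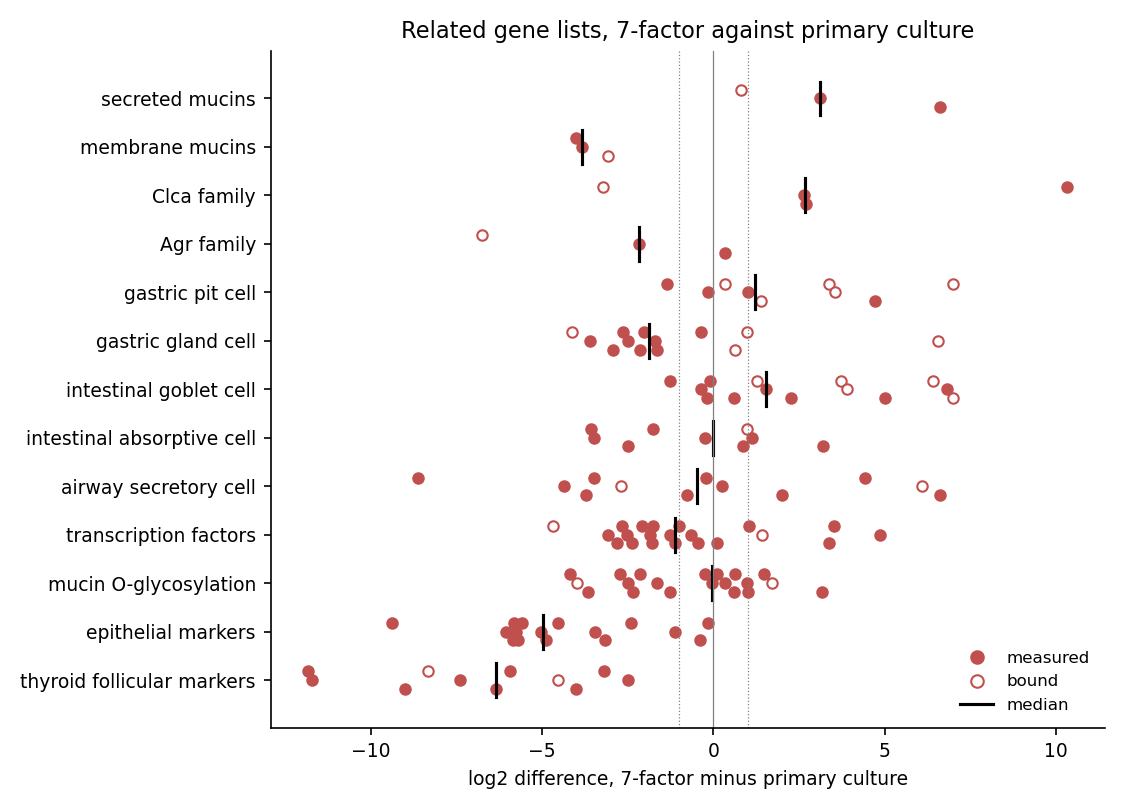
Log2 difference of the 7-factor from the primary array (horizontal axis) for each gene of 13 related lists, with filled points measured on both arrays, open points bounds, black bars list medians and dotted lines at 2-fold; bounds set to 0 are not drawn but count in the medians. Pit-cell and goblet-cell genes reach far to the right, with medians of 1.21 and 1.53, while epithelial and thyroid markers lie to the left, with medians of -4.96 and -6.35.

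Transcription factors of mucous lineages were higher in 5 and lower in 12 of 23 compared with 7 factors, and higher in 4 and lower in 13 of 23 with 8 (without scaling 9 and 1, and 10 and 1, where 69.4% and 72.5% of all genes were higher and 7.06% and 6.05% lower). Sox21 was left out of these counts by the same rule as Muc4; its brightest probe was higher by at least 4.64 and 4.06 and its other probes were not higher, at -1.16 and -0.56 and at -1.67 and -1.87. Gfi1, which acts in goblet and Paneth lineages, was 29.3-fold and 14.7-fold higher. Gata6 was higher by 3.52 and 3.31 on its brightest probe and by 1.46 and 1.13 on another, while the remaining probe was not well above background in the primary culture and left the difference undetermined. Sox2, which was delivered, was higher by 3.38 and 3.03. Barx1, a factor of stomach mesenchyme, was lower by 25.9-fold or more and 28.1-fold or more. Spdef, needed for goblet maturation, differed by 1.04 and 0.71, and Foxa2 by -2.39 and -2.43; these were singled out after their values were seen. Atoh1, the goblet-lineage factor, together with Cdx1, Pdx1 and Nkx6-3, was not well above background on any array.

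The signals that act on mucous cells leaned lower, in 10 of 20 and 9 of 20, with 5 and 3 higher, but without scaling 11 and 12 were higher and 2 and 1 lower, a smaller share higher than the 69.4% and 72.5% of all genes under that setting. Areg, an EGF receptor ligand, had differences of -4.01 and -3.35. Mucin O-glycosylation genes were higher in 4 of 21 and 4 of 22, near the 19.1% and 17.9% of all genes. They were lower in 9 of each, where 27.0% and 27.3% of all genes were lower. Without scaling 11 were higher in each and 3 and 2 lower, where 69.4% and 72.5% of all genes were higher. Galnt3 had differences of -4.17 and -3.12 and Galnt7 higher by 3.16 and 2.27. Partners of the trefoil factors were higher in 4 and 5 of 9 and lower in 3 and 3. These counts include Gkn2, Muc2 and Muc5ac, which are members of the chosen set. Gkn2 and Muc5ac were among the higher ones in both induced cultures, and Muc2 only in the culture with Hhex added. Lingo2, a reported receptor partner of Tff3, was higher by at least 3.86 and 2.64, and F2rl1 had differences of -3.58 and -2.71.

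The markers of other cells put these values in context. Over all genes compared, 19.1% and 17.9% were higher and 27.0% and 27.3% lower with 7 and 8 factors. General epithelial markers were lower in 14 of 16 in each induced culture (medians -4.96 and -4.84), though all 16 were well above background on every array. Without scaling 12 and 10 of them were lower and 2 and 2 higher. Epcam had differences of -5.75 and -5.11, and Cdh1 of -3.47 and -2.79. Krt8 differed by -1.13 and -1.57, and by 0.99 and 0.75 without scaling. All 11 thyroid markers were lower in both, Tg with differences of -11.82 and -12.73. They include the delivered Pax8, Nkx2-1 and Foxe1. Without scaling 10 and 9 of the 11 were lower, with Foxe1 at -0.36 and 0.25. Fibroblast markers were higher in 11 of 15 and 10 of 15 and lower in 1 and 0. The lower one with 7 factors was Fn1, at -2.06 on its brightest probe and 0.06 without scaling. Its other probes gave -2.70 and -0.12. Leukocyte markers were lower in 14 of 14 in each, and without scaling in 11 of 14 in each.

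In the 8-factor against 7-factor comparison, 3.92% of all genes were at least 2-fold lower and 4.65% higher. Of the goblet genes, 5 of 16 were at least 2-fold lower and 0 higher (median -0.60). These were Spink4 (-2.30), Retnlb (-1.65), Retnla (-1.27), Fcgbp (-1.14) and Tspan13 (-1.12). Spink4, Retnlb and Retnla are small secreted proteins, and a dimmer probe of Fcgbp, a mucus protein, gave -0.35. Without scaling 3 of 16 were lower, with Fcgbp at -0.94 and Tspan13 at -0.92. Of the gastric pit genes 0 of 10 were at least 2-fold different (median -0.19), and 1 was higher without scaling. Of the trefoil partners 4 of 9 were lower, namely Lingo2, Fcgbp, Cxcr4 and Dmbt1, whereas without scaling 1 was lower and 2 were higher. The 9 include Gkn2, Muc2 and Muc5ac of the chosen set, and Muc2 was among those higher without scaling. Foxa1 differed by -1.67, while Ehf was higher by 1.93. Ereg was higher by 1.80.

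Position along the chromosome was also examined, using RefSeq for gene order only. Of 24 protein-coding neighbours (2 on each side of each gene or cluster), 18 could be compared: 7 were higher and 3 lower with 7 factors and the same numbers with 8, with medians of 0.63 and 0.44. Of all genes compared, 19.1% were higher and 27.0% lower with 7 factors, and 17.9% and 27.3% with 8, with medians of 0.00. Several neighbours, such as Muc5b, Agr3, Gkn3 and Tspan13, are also among the related genes described above. An effect of position was not tested. Tff3, Tff2 and Tff1 are adjacent on chromosome 17; the flanking Abcg1 was higher by 3.04 and 2.75 and Tmprss3 differed by -0.85 and -0.97, under 2-fold. Beside Clca1 on chromosome 3, Clca4b and Clca2 were not well above background on any array, while Odf2l differed by 0.72 and 1.38. Beside Muc2 and Muc5ac on chromosome 7, Muc5b was high and Tollip differed by 0.15 and -0.23. Between the induced cultures 1 of 18 neighbours was at least 2-fold lower (Tspan13, beside Agr2) and 0 were higher.

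The genes with the most similar differences were listed by the Euclidean distance between their 2 differences from the primary array, among 14836 genes well above background on both induced arrays. The nearest to Tff1 was Xist (distance 0.44), which was higher by 574-fold or more and 351-fold or more, then Gkn2 (0.47) and Igf2 (1.26). The sex of the cells was not compared between the cultures, so its part in the Xist difference was not tested. The nearest to Tff3 were Pitx1 (0.75), Apod (1.01) and then Zg16. Gkn2 was nearest to Tff1 (0.47), Xist (0.73) and Clca1 (1.28), and Clca1 to Gkn2 (1.28), Tff1 (1.72) and Xist (2.00). These distances rest on 2 differences that share 1 primary array and say nothing of shared control. The differences of Xist, Gkn2 and Apod are lower bounds that entered as if measured. Distances and orders that involve them are therefore not determined.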

How the data were processed

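Total RNA was labelled with Cy3 and read on one-colour Agilent arrays, per the labels' protocols. The deposited intensity values are the processed signal, made per the file headers by background subtraction and trend correction in Feature Extraction 11.5.1.1; the submitters' processing notes name version 10.5. The deposited value table held the same signal with no scaling between arrays, within 1% or 0.001 for all 45018 values.

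Control spots and outlier-marked spots were left out, which lost 3 probes. A level is the log2 signal minus its array's 75th percentile. RefSeq accessions (GRCm38.p6 table) gave the names (27815 of 41171 probes, 67.6%, with 13356 unnamed), and a gene was represented by its probe of highest mean level. List counts rest on that probe, and other probes of some genes, such as Bcas1 and Galnt4, pointed the other way. A side not well above background was replaced by the lowest well-above signal of that array, giving a bound. Where such a bound pointed the wrong way the difference was set to 0. Those zeros count in all medians, and the all-gene medians of 0.00 against the primary culture fall on them. A gene whose brightest probe, but not every probe, was below that mark on an array was left out. Genes past 2-fold were counted in each direction. Groups of 1 array allow no test. Array number limits precision. Calculations used Python 3.11.15, pandas 2.3.3, R 4.3.3 and limma 3.58.1, and were tested on simulated data.

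The members and lists were chosen with earlier results of these data known. Named genes were the 10 members, up to 4 of each list by largest difference from the primary culture, all genes of lists of 6 or fewer, and the 3 nearest genes of 4 members; other names were picked after their values were seen. Alternatives covered background correction, scaling, floor, probe choice, detection mark, outlier spots and the value table.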

Additional observations from a re-analysis of the deposited data

How the results depend on the processing

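No paired analysis was possible because each group holds 1 array. Across the alternatives, 0 of the member differences past 2-fold reversed direction, while Clca1 between the induced cultures turned from -0.23 to 0.21 with quantile normalization. With 7 factors against primary, 76 of 110 values kept their size within the scanner error. With 8 factors 60 of 99 did, and between the induced cultures 101 of 110. These counts overstate stability. The value table equals the processed signal and no member spot was outlier-marked, so those settings could not move a measured difference. For bounds, the error included that of the spot not well above background, which was 1.86 for Tff2 in the primary culture. Without scaling, members lower than primary with 7 factors numbered 1 in place of 2 (Agr2 at -0.04), and 1 was higher with 8 than with 7 factors in place of 0 (Muc2 at 1.02). With the floor raised to 25% of the 75th percentile, 2 members in place of 4 differed, and were lower, between the induced cultures (Tff2 at -0.72 and Agr2 at -0.83 were lost). Tff1 was under 2-fold there with quantile normalization (-0.89) and without scaling (-0.88). Other changed calls concerned Muc2, Tff2 and Muc5ac: the first reached 2-fold with 7 factors under 4 settings, Tff2 against primary was 0.72 and 0.00 under the raised floor, and Muc5ac with 8 factors was 0.84 over the median of its probes. Over 12 settings, Clca1 ranged from 8.20 to 12.43, Tff1 from 7.92 to 11.72, Tff3 from 4.68 to 9.74 and Gkn2 from 6.43 to 11.78 with 7 factors. Over all genes, the share higher and lower with 7 factors was 26.6% and 22.7% with median scaling and 69.4% and 7.06% without scaling, against 19.1% and 27.0%; with 8 factors it was 72.5% and 6.05% without scaling. Normexp on mean spot signal was not run, since the array files used here carry median signals; normexp on those, and a floor at the 1st percentile, were added after seeing the data.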
